A study of Homo sapiens with 12 samples.

Results

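The pregnancy-specific glycoprotein (PSG) genes were followed in HK-2 cells, an immortalized line from human proximal tubule epithelium, after 72 h with 2,8-dihydroxyadenine (DHA). DHA is a poorly soluble purine that crystallizes in the kidney tubules of people who lack adenine phosphoribosyltransferase. The 4 groups of 3 libraries, all from this line, received medium alone (control) or DHA in medium at 60 ug/ml (called DHA60 here), at 120 ug/ml (DHA120) or at 240 ug/ml (DHA240). The sources used here name no carrier for the DHA, and the controls received medium only. The 10 protein-coding PSG genes were chosen by name, with earlier results of these data known. The shares of all genes given beside their counts are therefore description only. The 6 whose value reached 1 in 3 or more of the 12 libraries (PSG1, PSG2, PSG3, PSG5, PSG8 and PSG9) were tested among 16789 genes. PSG4, PSG6, PSG7 and PSG11 fell short of that level and are described by their values. The closest to it were PSG4, with 2 libraries at 1 or above, and PSG11, with 1, while PSG2 passed with 7 libraries and PSG9 with 10.

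PSG proteins are secreted glycoproteins of the immunoglobulin superfamily and form a branch of the carcinoembryonic antigen (CEA) family. They are known as products of the syncytiotrophoblast, the fused outer cell layer of the placenta, and reach high concentrations in the blood of pregnant women. PSG1 and PSG9 are known to bind and activate latent TGF-beta, and PSG1 also binds integrins and heparan sulfate. The kidney is not a known main source of these proteins, so the transcripts measured here are those of a placental gene family in an epithelial cell line.

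The PSG genes lie side by side on the minus strand of chromosome 19, and the 10 genes span 548 kb (GRCh38, chr19:42721638-43269530). Their sequences are close to each other. Over the coding sequence of 1 transcript per gene, the 15 pairs among the 6 tested genes were 89.4% to 95.3% identical where they aligned, with gaps left out. The longest identical run in a pair, over all transcripts of both genes and with noncoding parts, held 54 to 203 bases. The first 60 coding bases show how alike the tested genes are. They are given 5′ to 3′ from the GENCODE release 29 transcripts on GRCh38, with capitals where a base differs from PSG1. PSG1 was read from chr19:42879522-42879581, PSG2 from chr19:43082510-43082569, PSG3 from chr19:42740325-42740384, PSG5 from chr19:43186346-43186405, PSG8 from chr19:42765522-42765581 and PSG9 from chr19:43269372-43269431, all on the minus strand.
PSG1: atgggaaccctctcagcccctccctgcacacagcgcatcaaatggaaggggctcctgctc
PSG2: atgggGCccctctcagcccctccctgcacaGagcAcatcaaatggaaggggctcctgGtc
PSG3: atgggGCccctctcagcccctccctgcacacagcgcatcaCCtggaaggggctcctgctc
PSG5: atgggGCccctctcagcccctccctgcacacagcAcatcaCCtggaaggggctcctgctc
PSG8: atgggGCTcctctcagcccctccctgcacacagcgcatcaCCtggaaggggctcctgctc
PSG9: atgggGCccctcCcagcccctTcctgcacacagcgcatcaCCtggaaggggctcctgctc
The other genes differed from PSG1 at 4 bases (PSG3), 5 bases (PSG2, PSG5 and PSG8) and 6 bases (PSG9) of these 60.

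The share of a gene's 31-base words that also occur in transcripts of another of the 10 PSG genes ran from 29.9% for PSG5 to 53.0% for PSG8, over all transcripts of each gene. PSG1 and PSG8 shared the most, with 23.1% of the PSG8 words found in PSG1 and 19.3% of the PSG1 words found in PSG8. The sources used here do not name the quantification tool or say how it divided reads that fit more than 1 gene. The level of a single PSG gene is therefore uncertain, and the summed level is given beside the single genes. Reads moved between PSG genes leave that sum as it is only if the signal does not depend on transcript length, which is not known. Reads placed on transcripts outside the 10 genes are missing from it.

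**Figure D1:**
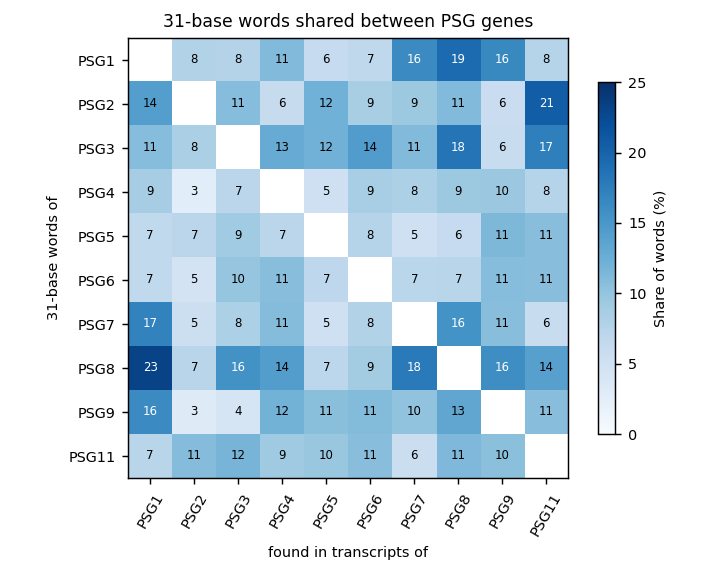
Share of the 31-base words of each PSG gene (row, in %) that occur in the transcripts of another PSG gene (column), over all GENCODE transcripts of the 10 genes. The darkest cells join PSG8 with PSG1 (23.1%) and PSG2 with PSG11 (20.6%).

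The summed PSG level was lower in every DHA group than in control. The sum of the 10 genes in libraries 1, 2 and 3 was 138.3, 135.1 and 117.5 in control, 106.7, 103.0 and 55.0 in DHA60, 43.2, 46.5 and 30.6 in DHA120, and 38.8, 27.0 and 31.3 in DHA240, in units of the deposited normalized signal. As deposited, every DHA library was below every control library, and library 3 stood well below the other 2 in DHA60. The library totals of all genes were also lower in DHA (at most 1060084) than in control (at least 1143850). The PSG sum was not scaled to equal totals. As mean ± SD (n = 3 each), the PSG sum as deposited was 130 ± 11.2 in control, 88.2 ± 28.8 in DHA60, 40.1 ± 8.39 in DHA120 and 32.4 ± 5.97 in DHA240. The DHA means were 67.7%, 30.8% and 24.8% of the control mean, in order of dose. In RNA from whole cultures, fewer cells that make a transcript and less of it per cell cannot be told apart.

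Of the 6 tested PSG genes, 2 were called lower in DHA60, where 10.0% of all genes tested were called lower. All 6 tested genes were called lower in DHA120, where 20.8% of all genes were, and all 6 in DHA240, where 23.5% were. PSG2, 1 of these 6, passed the filter mainly through control and DHA60 libraries, which favours a lower call. No tested PSG gene was called higher at any dose, where 8.89%, 15.9% and 19.7% of all genes were. A call is an adjusted p under 0.05 in limma's moderated test over 16789 genes, and a log2 fold change is of value + 1. The 3 comparisons share the control libraries. In DHA60 the libraries of 4 of the 6 (PSG3, PSG5, PSG8 and PSG9) all lay below all control libraries, as did those of 20.3% of all genes tested. In DHA120 and DHA240 those of the 6 did, as did those of 27.3% and 28.7% of all genes. In DHA240, 5 of the 6 also had a log2 fold change of -1 or less, which 5.19% of all genes tested combined with a call. The median log2 fold change over all genes was -0.03 at each dose.

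**Figure D2:**
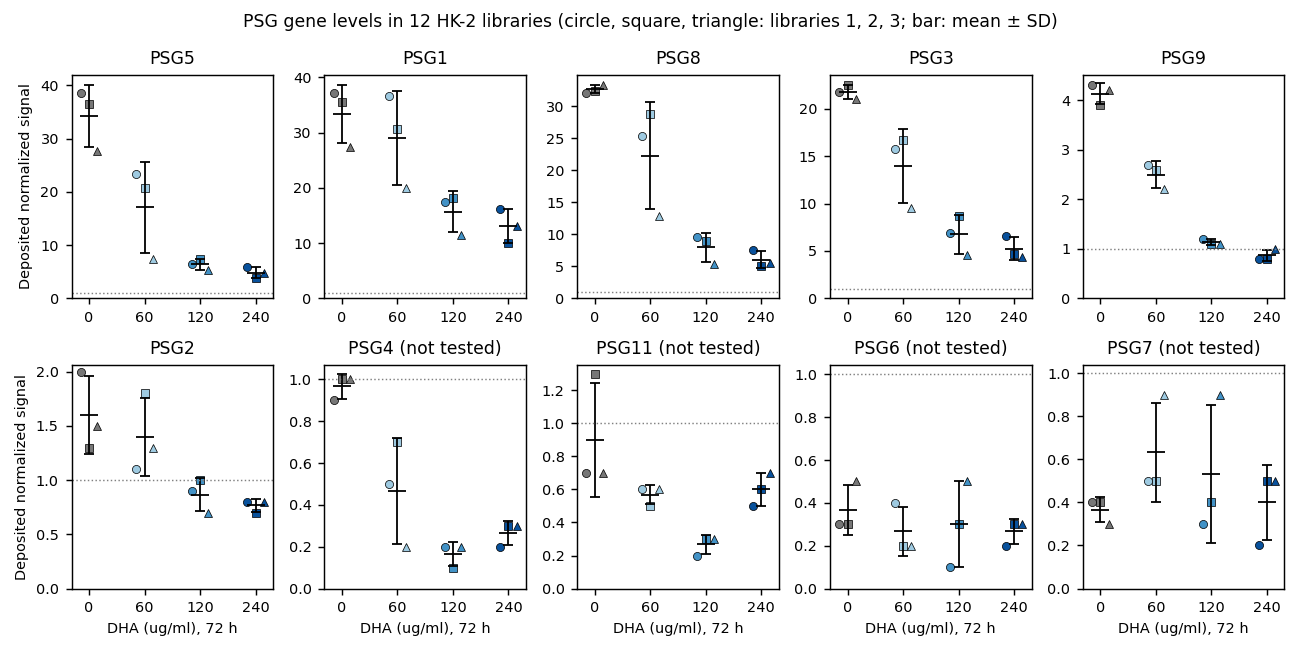
Deposited normalized signal of the 10 PSG genes in each library against DHA dose (ug/ml, 72 h); circles, squares and triangles are libraries 1, 2 and 3, bars are mean ± SD of 3, and the dotted line marks the filter value of 1. In the 6 tested genes the mean is lower at each step in dose, and in PSG1, PSG3, PSG5, PSG8 and PSG9 library 3 is the lowest of the DHA60 group.

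PSG5, a member whose promoter has been well studied, had the largest log2 fold change of the 6 tested genes at each dose. Its signal was 38.6, 36.5 and 27.6 in control, 23.3, 20.7 and 7.4 in DHA60, 6.4, 7.4 and 5.4 in DHA120, and 5.9, 3.9 and 4.7 in DHA240. The DHA libraries did not overlap with control at any dose, and library 3 of DHA60 already lay at the level of the DHA120 group. The log2 fold change against control was -1.09 ± 0.32 (SE, limma, adjusted p = 0.0374) in DHA60, -2.25 ± 0.32 (adjusted p = 3.63e-04) in DHA120 and -2.59 ± 0.32 (adjusted p = 1.09e-04) in DHA240. The mean in DHA240 was 14.1% of the control mean. The call in DHA60 did not hold when any 1 of the control libraries, or library 1 of the DHA120 group, was left out (adjusted p = 0.114, 0.0995 and 0.0529 without control library 1, 2 and 3, and 0.0518 without the DHA120 library). Nor did it hold with libraries scaled to equal totals (adjusted p = 0.0501) or without the filter (adjusted p = 0.0879). It was also lost without a variance trend (adjusted p = 0.0514) and with only the 2 groups compared (adjusted p = 0.108). Without library 3 of DHA60 the change there was -0.60 (adjusted p = 0.0465).

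PSG8, the member that shares most sequence with PSG1, had the largest change after PSG5 in DHA120 and DHA240. The signal was 32.1, 32.4 and 33.3 in control, 25.3, 28.7 and 12.8 in DHA60, 9.6, 9.0 and 5.4 in DHA120, and 7.5, 5.1 and 5.5 in DHA240. The control libraries lay close together and above every DHA library, and the DHA60 libraries lay above those of both higher doses. The log2 fold change was -0.60 ± 0.27 in DHA60 (limma, adjusted p = 0.14), which was not called, -1.93 ± 0.27 (adjusted p = 2.76e-04) in DHA120 and -2.27 ± 0.27 (adjusted p = 7.47e-05) in DHA240. The mean in DHA240 was 18.5% of the control mean. Without library 3 of DHA60 the change there was -0.27 (adjusted p = 0.422).

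PSG3, another secreted member, followed the same order of doses. Its signal was 21.8, 22.5 and 21.0 in control, 15.7, 16.7 and 9.5 in DHA60, 6.9, 8.7 and 4.6 in DHA120, and 6.6, 4.7 and 4.4 in DHA240. All DHA libraries lay below all control libraries, and the DHA120 and DHA240 groups overlapped. The log2 fold change was -0.64 ± 0.23 in DHA60 (limma, adjusted p = 0.0694, not called), -1.59 ± 0.23 (adjusted p = 3.29e-04) in DHA120 and -1.89 ± 0.23 (adjusted p = 8.48e-05) in DHA240. The mean in DHA240 was 24.0% of the control mean. Without library 3 of DHA60 the change there was -0.40 (adjusted p = 0.215).

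PSG9, which is also known from colorectal tumours, had low values with a narrow spread. The signal was 4.3, 3.9 and 4.2 in control, 2.7, 2.6 and 2.2 in DHA60, 1.2, 1.1 and 1.1 in DHA120, and 0.8, 0.8 and 1.0 in DHA240. No 2 of the 4 groups overlapped. It was called at every dose, with log2 fold changes of -0.55 ± 0.12 (limma, adjusted p = 0.00926), -1.27 ± 0.12 (adjusted p = 3.76e-05) and -1.46 ± 0.12 (adjusted p = 1.16e-05) in DHA60, DHA120 and DHA240. The mean in DHA240 was 21.0% of the control mean. In DHA60 the call did not hold with libraries scaled to equal totals (adjusted p = 0.0711).

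PSG1, the member most studied as a recombinant protein, had smaller fitted changes than the 4 genes above, a difference between genes that was not tested. The signal was 37.2, 35.5 and 27.4 in control, 36.6, 30.6 and 19.9 in DHA60, 17.4, 18.2 and 11.5 in DHA120, and 16.1, 10.1 and 13.1 in DHA240. The DHA60 libraries overlapped with control, and those of both higher doses lay below it. The log2 fold change was -0.22 ± 0.24 in DHA60 (limma, adjusted p = 0.565), which was within the spread, -1.05 ± 0.24 (adjusted p = 0.00495) in DHA120 and -1.30 ± 0.24 (adjusted p = 0.00116) in DHA240. The mean in DHA240 was 39.3% of the control mean. Without library 3 of the DHA60 group, the change in DHA60 was 0.016.

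PSG2, like the others a secreted member, was near the filter value of 1. It reached that value in 3 control, 3 DHA60, 1 DHA120 and 0 DHA240 libraries. It thus passed the filter with the help of the groups where it is high, which favours a lower call. The PSG2 signal was 2.0, 1.3 and 1.5 in control, 1.1, 1.8 and 1.3 in DHA60, 0.9, 1.0 and 0.7 in DHA120, and 0.8, 0.7 and 0.8 in DHA240. The DHA60 libraries overlapped with control, and those of DHA120 and DHA240 lay below it. The log2 fold change was -0.12 ± 0.17 (limma, adjusted p = 0.682), -0.47 ± 0.17 (adjusted p = 0.0446) and -0.55 ± 0.17 (adjusted p = 0.02) in DHA60, DHA120 and DHA240. The scale weighs on so low a gene: with a pseudocount of 0.1 the changes were -0.81 in DHA120 and -0.95 in DHA240, and the mean in DHA240 was 47.9% of the control mean. The 2 calls of PSG2 depended on the scaling, with adjusted p = 0.254 in DHA120 and 0.157 in DHA240 after scaling to equal totals, where the change in DHA60 was 0.0065. Its DHA240 call was also lost without control library 1 (adjusted p = 0.0858) and without library 2 of the DHA240 group (adjusted p = 0.057).

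The library totals of the deposited signal bear on each of these changes. They ran from 791808 to 1060084 in the DHA libraries and from 1143850 to 1228979 in control. With libraries scaled to equal totals, the median log2 fold change over the tested genes lay higher by 0.16 in DHA60, 0.30 in DHA120 and 0.36 in DHA240. After that scaling, 2782 genes were called higher and 657 lower in DHA60 (1492 and 1685 as deposited), 6090 and 1378 in DHA120 (2670 and 3485), and 7205 and 1531 in DHA240 (3306 and 3938). PSG1, PSG3, PSG5, PSG8 and PSG9 were called lower in DHA120 and DHA240 under the deposited scaling, with equal totals and after quantile normalization. In DHA120 8.21% of all genes were called lower with equal totals and 18.1% after quantile normalization, and in DHA240 9.12% and 20.7%. The changes of these 5 genes with equal totals were -0.70, -1.25, -1.90, -1.59 and -1.0 in DHA120, and in DHA240 they were -0.89, -1.49, -2.20, -1.87 and -1.17.

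**Figure D3:**
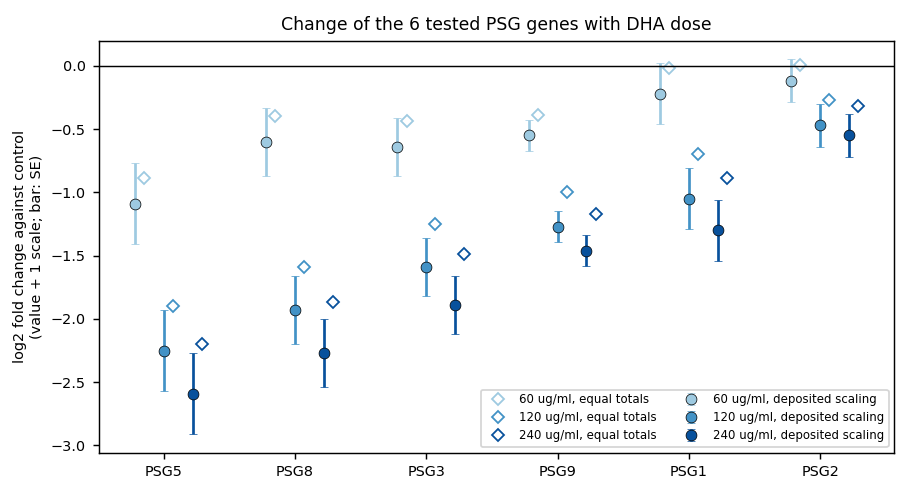
Log2 fold change against control (value + 1 scale) of the 6 tested PSG genes in DHA60, DHA120 and DHA240; filled circles with SE bars are the deposited scaling and open diamonds the scaling to equal library totals. PSG5 reaches -2.59 and PSG2 only -0.55 in DHA240, and scaling to equal totals moves every point up without taking a DHA120 or DHA240 value above 0.

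In PSG1, PSG2, PSG3, PSG8 and PSG9 the fitted change between DHA60 and DHA120 was larger than that between control and DHA60 or between DHA120 and DHA240, a difference between steps that was not tested. In PSG5 the changes up to DHA60 and from there to DHA120 were close (-1.09 and -1.16), and which was larger turned with the libraries and transcripts used. In DHA120 against DHA60, PSG8 (-1.33 ± 0.27, limma, adjusted p = 0.0375) and PSG9 (-0.71 ± 0.12, adjusted p = 0.0312) were called lower, where 1.61% of all genes were. PSG3, PSG5 and PSG1 had changes of -0.95, -1.16 and -0.83 (adjusted p = 0.0524, 0.07 and 0.0725). This count rested on single libraries. It was 5 without library 3 of the DHA60 group, and 0 without control library 1, without library 1 or 2 of the DHA60 group, or without any 1 library of the DHA120 group. In DHA240 against DHA60, 5 of the 6 were called lower, where 13.1% of all genes were, with changes from -0.91 for PSG9 to -1.67 for PSG8, and PSG2 was not (-0.43, adjusted p = 0.0803).

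In DHA240 against DHA120, the PSG changes ran from -0.08 for PSG2 to -0.35 for PSG5, and limma called 0 of the 6. It called 0 of all 16789 genes there (0% lower), while 1331 genes had an unadjusted p under 0.05. A difference between these 2 doses was therefore not detected with 3 libraries a group.

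The 4 PSG genes under the filter did not all follow the tested ones. PSG4 had 0.9, 1.0 and 1.0 in control, 0.5, 0.7 and 0.2 in DHA60, 0.2, 0.1 and 0.2 in DHA120, and 0.2, 0.3 and 0.3 in DHA240, with every DHA library below control. PSG11 had 0.7, 1.3 and 0.7 in control, 0.6, 0.5 and 0.6 in DHA60, 0.2, 0.3 and 0.3 in DHA120, and 0.5, 0.6 and 0.7 in DHA240, where it again met the control values. PSG6, known like PSG11 to raise cytokine release from monocytes, stayed between 0.1 and 0.5 in all 12 libraries, with each DHA group overlapping with control. PSG7 lay between 0.2 and 0.9, with 0.5, 0.5 and 0.9 in DHA60, all above the 0.4, 0.4 and 0.3 of control, and with DHA120 and DHA240 overlapping with control. In a fit of 34520 genes without the filter, PSG4 was called lower in DHA120 (-0.75 ± 0.12, limma, adjusted p = 0.00214) and DHA240 (-0.64 ± 0.12, adjusted p = 0.00431), and PSG11 in DHA120 (-0.57 ± 0.13, adjusted p = 0.0135). In DHA60 none of the 4 was called. In DHA240 PSG6 (-0.11 ± 0.12, adjusted p = 0.606), PSG7 (0.03 ± 0.16, adjusted p = 1) and PSG11 (-0.23 ± 0.13, adjusted p = 0.287) were not. These values are 1 to 13 steps of the last decimal kept and have little resolution.

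The order of the mean levels in DHA240 was not that of control, a difference that was not tested. PSG5 (34.2 ± 5.84), PSG1 (33.4 ± 5.24) and PSG8 (32.6 ± 0.624) did not differ beyond their spread in control and stood above PSG3 (21.8 ± 0.751), PSG9 (4.13 ± 0.208) and PSG2 (1.60 ± 0.361), as mean ± SD of 3. In DHA240 PSG1 (13.1 ± 3.0) stood above PSG8 (6.03 ± 1.29), PSG3 (5.23 ± 1.19) and PSG5 (4.83 ± 1.01), which did not differ beyond their spread, and above PSG9 (0.867 ± 0.115) and PSG2 (0.767 ± 0.0577). The sources used here do not say whether the deposited signal is per transcript length, so an order between genes describes this signal only.

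PSG1 made up 40.3% ± 2.47 of the summed PSG signal in DHA240 and 25.5% ± 1.91 in control (SD, n = 3 each). PSG5 made up 14.9% ± 0.396 in DHA240 and 26.1% ± 2.34 in control, and PSG8 18.6% ± 0.915 in DHA240 and 25.2% ± 2.77 in control. PSG2 made up 2.40% ± 0.296 in DHA240 and 1.23% ± 0.246 in control. These 4 shares did not overlap between the groups. An exact two-sided permutation test gave p = 0.1 for each, the smallest that 3 against 3 libraries allow, and 0.15 adjusted over the 6 shares compared. The share of PSG3 was 16.2% ± 1.83 in DHA240 and 16.8% ± 1.06 in control, with overlapping libraries (exact permutation p = 0.7). Shares of 1 sum depend on each other.

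**Figure D4:**
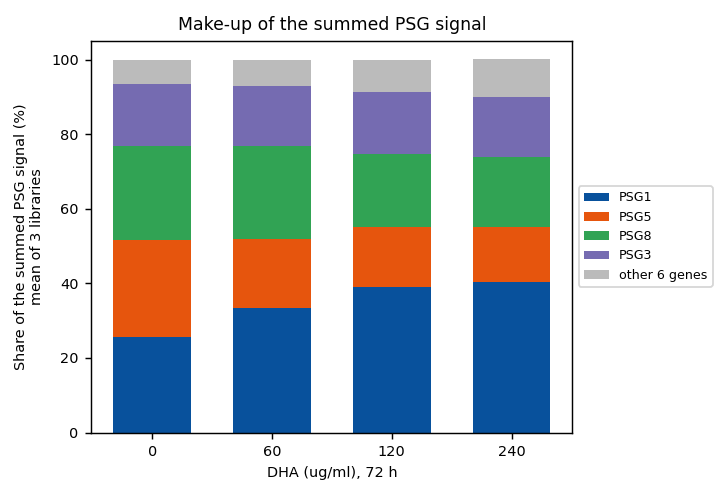
Mean share (%) of each PSG gene in the summed PSG signal at each DHA dose (ug/ml), over 3 libraries a group, with PSG2, PSG4, PSG6, PSG7, PSG9 and PSG11 joined as the other 6 genes. The PSG1 part is 40.3% in DHA240 and 25.5% in control, and the PSG5 part 14.9% in DHA240 and 26.1% in control.

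The transcripts with the most signal, which are parts of the gene sums above, were read one by one. The table held 95 transcripts of the 10 genes, of which 18 were listed at 0 in every library and 17 had a mean of at least 1. In each of these 17 the DHA240 libraries all lay below the control libraries, as did 20.3% of all transcripts with a mean of at least 1. All 17 came from PSG1, PSG3, PSG5, PSG8 and PSG9, so they are not a result apart from those genes and do not cover the family. Transcripts with a lower mean did not all go the same way. Of the 17, 6 were not annotated as protein-coding. PSG5-201, the main coding transcript of PSG5, had a signal of 0.367 ± 0.473 in DHA240 and 12.1 ± 2.89 in control, and PSG5-204, a processed transcript, 2.17 ± 0.551 in DHA240 and 9.40 ± 1.35 in control. PSG1-204, the main PSG1 transcript, had 5.93 ± 1.57 in DHA240 and 16.2 ± 3.13 in control. PSG8-204 had 1.33 ± 0.0577 in DHA240 and 7.97 ± 1.16 in control. The sources used here do not say how near-identical transcripts of a gene were told apart.

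The tested PSG genes also varied together across libraries. Pearson's r of log2(value + 1) over the 12 libraries, which share the dose groups, ran from 0.84 to 0.99 over the 15 pairs, and from 0.24 to 0.93 after the group means were removed. PSG3 and PSG8 had the highest value within groups, and PSG2 and PSG5 the lowest. Libraries share a scaling and genes share sequence, so these values describe the table only.

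The promoter windows at hand were those of PSG3, PSG5 and PSG4, from RefSeq on GRCh38.p14. They are shown because no other PSG windows were available. The 250 bases upstream of the start were 96.3% identical between PSG3 and PSG5, 95.1% between PSG3 and PSG4 and 98.1% between PSG5 and PSG4 where they aligned. A part of these sequences in the changes was not tested. The last 100 bases before each annotated start are given 5′ to 3′ on the minus strand, with a GC box (GGGCGG, read here on the other strand) or CACCC box (CCACCC) in capitals. PSG3 is chr19:42740482-42740581, PSG5 chr19:43186537-43186636 and PSG4 chr19:43205639-43205738.
PSG3: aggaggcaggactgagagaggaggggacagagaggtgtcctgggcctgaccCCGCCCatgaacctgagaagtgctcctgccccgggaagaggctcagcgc
PSG5: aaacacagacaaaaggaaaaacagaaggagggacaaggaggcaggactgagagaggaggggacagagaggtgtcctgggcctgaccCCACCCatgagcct
PSG4: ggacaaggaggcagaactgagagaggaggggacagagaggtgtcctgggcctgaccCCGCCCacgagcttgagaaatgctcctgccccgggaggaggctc
The 3 windows hold the same stretch at different distances from the RefSeq start, with the GC box of PSG3 and PSG4 at the place of the CACCC box of PSG5. The GENCODE gene bodies used for the levels reach up to 42740569 (PSG3), 43186536 (PSG5) and 43207299 (PSG4). Most of the PSG3 window and all of the PSG4 window thus lie inside those bodies, and the distances depend on the annotation. Searched on both strands of all 35116 windows of 300 bases, GGGCGG was found in 45.0% and CCACCC in 34.3%. TATAAA (11.5% of all windows), CGGAAG (an ETS core, 19.5%) and TGANTCA (AP-1, 7.71%) were not among the letters of the 3 PSG windows.

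Transcription factors known from studies of PSG promoters or of trophoblast were more often called higher than lower. Of 17 such genes, 13 were tested, and 8 were called higher and 1 lower in DHA240, with a median log2 fold change of 0.37, against 19.7% higher and 23.5% lower of all genes and a median of -0.03. KLF4, a zinc finger factor of epithelial differentiation, had a signal of 3.93 ± 0.351 in DHA240 and 0.90 ± 0.173 in control (1.38 ± 0.14, limma, adjusted p = 3.06e-05). Its control mean lay under the filter value of 1, so KLF4 passed the filter with the help of DHA libraries. PPARG, a nuclear receptor of trophoblast and fat cells, changed by 0.75 ± 0.11 (adjusted p = 3.43e-04). KLF6, first isolated as a protein that binds a PSG promoter, changed by 0.73 ± 0.11 (adjusted p = 4.33e-04), and KLF5 by 0.71 ± 0.20 (adjusted p = 0.0148). RXRA, a partner of nuclear receptors, was the 1 called lower (-0.32 ± 0.09, adjusted p = 0.013), and its change was 0.09 with equal totals, where 10 of the 13 were called higher and 0 lower, beside 42.9% and 9.12% of all genes. After quantile normalization 7 were called higher and 1 lower, beside 22.7% and 20.7% of all genes.

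Genes of known or proposed PSG binding partners, which include integrins, syndecans, TGF-beta ligands and a galectin, were all tested. Of the 15, 1 was called higher and 8 lower in DHA240 (median -0.35), where 19.7% of all genes were higher and 23.5% lower. With equal totals 5 were called higher and 4 lower, beside 42.9% and 9.12% of all genes, and after quantile normalization 1 higher and 4 lower, beside 22.7% and 20.7%. The heparan sulfate carrier SDC2 had 116 ± 26.3 in DHA240 and 271 ± 17.2 in control (-1.24 ± 0.17, limma, adjusted p = 1.57e-04). The ligand TGFB2 had 67.7 ± 1.81 in DHA240 and 152 ± 18.5 in control (-1.15 ± 0.08, adjusted p = 7.45e-06). LGALS1, a secreted galectin that is reported to bind PSG1, and TGFB3 changed by -0.99 ± 0.20 and -0.95 ± 0.26 (adjusted p = 0.00223 and 0.0104). The TGFB3 call did not hold with equal totals, and the LGALS1 call did not hold after quantile normalization. ITGA5, the integrin chain of the fibronectin receptor, changed by -0.14 (adjusted p = 0.248) and TGFB1 by 0.10 (adjusted p = 0.509).

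The closest relatives of the PSG genes were low or listed at 0. Of 12 CEACAM genes, the other branch of the CEA family, 7 were listed at 0 in all 12 libraries, CEACAM5 and CEACAM6 among them, and 2 were tested. CEACAM19 was called lower in DHA240, with 1.27 ± 0.551 against 3.37 ± 1.10 in control (-0.94 ± 0.29, limma, adjusted p = 0.0208), and this call did not hold with equal totals. CEACAM1, an epithelial adhesion receptor, had 0.433 ± 0.115 in DHA240 and 1.03 ± 0.208 in control (-0.50 ± 0.19, adjusted p = 0.0548).

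Other placental genes were mostly low or listed at 0. Of 25 genes of the syncytiotrophoblast and its hormones, 9 were tested and 6 were listed at 0 in all libraries, among them CYP19A1 (placental aromatase), ERVFRD-1 (syncytin-2) and GH2 (placental growth hormone). In DHA240 2 of the 9 were called higher and 3 lower, beside 19.7% and 23.5% of all genes, and with equal totals 3 were called higher and 2 lower, beside 42.9% and 9.12%. CGB5 and CGB8, near-identical genes for the beta chain of chorionic gonadotropin, fell. CGB5 had 0.6, 0.7 and 0.9 in DHA240 and 5.8, 4.0 and 5.9 in control (-1.83 ± 0.19, limma, adjusted p = 3.96e-05), and CGB8 had 2.0, 2.0 and 2.5 in DHA240 and 8.9, 7.4 and 9.3 in control (-1.59 ± 0.17, adjusted p = 4.11e-05). PAPPA2, a protease that acts on IGF-binding proteins, was called higher (0.66 ± 0.19, adjusted p = 0.0151), as was CSH2 (0.54 ± 0.17, adjusted p = 0.025), with signals of 3.07 and 1.13 in DHA240 and 1.57 and 0.467 in control. The control mean of CSH2 lay under the filter value of 1, so CSH2 passed the filter with the help of DHA libraries, which favours a higher call. The remaining lower call was ADAM12, a metalloprotease (-0.45 ± 0.09, adjusted p = 0.00223), which was lost with equal totals (-0.04). The summed signal of the 25 genes was 218.5 to 222.8 in control, 230.1 to 255 in DHA60, 200.5 to 218.6 in DHA120 and 177.4 to 196.1 in DHA240. Unlike the PSG sum, it was thus above control in DHA60.

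Of 21 genes of other trophoblast cells, 7 were tested and 7 were listed at 0 in all libraries, among them HLA-G, ELF5, CDX2 and VGLL1. KRT7, a keratin of simple epithelia, was called lower in DHA240 (-0.64 ± 0.23, limma, adjusted p = 0.0432) and none higher, and with equal totals this call did not hold. The summed signal of this list was 514.5 to 610.6 in control, 399.4 to 586.8 in DHA60, 458.1 to 507 in DHA120 and 445.7 to 502.6 in DHA240.

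Markers of the labelled cell type and of other cell types were read beside the family, in DHA240 with 19.7% of all genes called higher and 23.5% lower. Of 15 proximal tubule markers, 6 were tested, 3 were called lower in DHA240 (CDH16, GGT1 and SLC5A2), and the defining genes LRP2, SLC22A6 and HNF4A were listed at or near 0, while the kidney factor PAX8 had 274 ± 32.0 in DHA240 and 231 ± 7.40 in control. Of 6 epithelial markers, 3 were called lower in DHA240 (CDH1, KRT8 and EPCAM). None of either list was called higher as deposited. With equal totals, where 42.9% of all genes were called higher and 9.12% lower, the calls of SLC5A2 and EPCAM did not hold, 1 tubule marker was called higher and 2 lower, and 3 epithelial markers were called higher and 2 lower. After quantile normalization 1 tubule marker was called higher and 3 lower, and 2 epithelial markers higher and 3 lower. The summed tubule list was 446.5 to 544.0 in DHA240 and 540.3 to 607.8 in control, and the epithelial list 694.7 to 789.0 in DHA240 and 759.8 to 805.8 in control. Of 7 fibroblast markers, COL1A2 and COL3A1 were near 0 and the 3 tested, LUM, COL1A1 and DCN, were all called lower (-2.73, -1.70 and -1.68), with a list sum of 246.9 to 342.3 in control, 114.4 to 216.9 in DHA60, 66.8 to 76.4 in DHA120 and 38.8 to 65.9 in DHA240. Endothelial markers summed to at most 0.4 in any library, and the leukocyte genes PTPRC and CD3E were listed at 0 in every library, while CD68 made up most of a leukocyte list sum of 72.4 to 99.4 in DHA240 and 110.5 to 140.4 in control. The part of these markers in the PSG result was not tested.

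Genes around the PSG cluster were called in both directions. Within 1 Mb of the cluster 59 other genes were tested, of which 10 were called higher and 17 lower in DHA240 (median -0.15), against 19.7% and 23.5% of all genes. Among the largest called changes were CNFN, an epidermal envelope protein (-1.88 ± 0.19, limma, adjusted p = 3.35e-05), the ribosomal protein gene RPS19 (-1.38 ± 0.25, adjusted p = 0.00118), RABAC1, a Rab-binding protein (-1.26 ± 0.14, adjusted p = 6.36e-05), and ENSG00000272396 (-1.20 ± 0.24, adjusted p = 0.0018). The called gene RN7SL368P was listed at 0 in every control library. Inside the span of the cluster the 1 other tested gene was PSG11-AS1, a transcript on the opposite strand whose annotated body runs over PSG11, PSG2 and the end of PSG5.

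PSG11-AS1 had 3.0, 2.5 and 5.3 in DHA240 and 4.5, 5.3 and 3.4 in control, which overlap (-0.26, limma, adjusted p = 0.395). The libraries were made with strand marking, but the sources used here do not give the strand setting of the quantification, so reads of PSG11-AS1 and of the PSG genes it overlaps may not have been told apart. PSG8-AS1, within the annotated body of PSG8, and the pseudogene PSG10P, which overlaps that body and reaches past its start, stayed at or below 0.5 and 0.3 in every library.

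**Figure D5:**
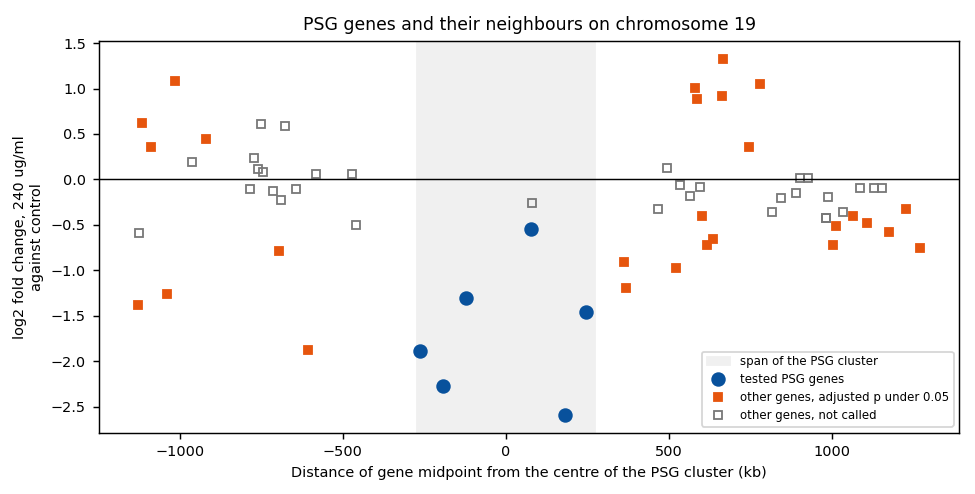
Log2 fold change in DHA240 against control (value + 1 scale) of the tested genes within 1 Mb of the PSG cluster against the distance of the gene's midpoint from the cluster's centre (kb); circles are the 6 tested PSG genes, filled squares other genes with an adjusted p under 0.05, open squares the rest. The PSG genes lie between -0.55 and -2.59, and the 59 neighbours lie on both sides of 0.

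The genes most like the family in level were spread over other chromosomes. By Pearson's r of log2(value + 1) with the summed PSG level over the 12 libraries, the 10 highest were CRTAC1, ECM1, CSDC2, COL4A2, MAGED1, GPC4, TBC1D22B, DNASE1L1, DNAJB5 and AIF1L, with r from 0.990 to 0.995. In all, 1113 genes had r over 0.9, so a value of this size was common among these libraries, which share dose groups and scaling. CRTAC1, a secreted cartilage protein, had a signal of 17.8 ± 2.61 in DHA240 and 71.4 ± 9.24 in control, and ECM1, an extracellular matrix protein, 12.5 ± 1.01 in DHA240 and 32.4 ± 0.889 in control. COL4A2, a collagen chain of basement membranes, had 358 ± 17.9 in DHA240 and 758 ± 31.6 in control.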

How the data were processed

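RNA from 12 libraries of HK-2 cells was profiled in 4 groups of 3, taken with their replicate numbers from the sample titles. Per the labels' protocols, poly(A) RNA was selected and libraries were made with dUTP strand marking and read in pairs on a DNBSEQ instrument. The deposited table holds 1 normalized signal for each of 267165 transcripts per library, to 1 decimal. The aligner, quantification tool, strand setting, annotation release and unit were not given in the sources used here. Library totals had a geometric mean of 999925, and the values are not counts. The authors' signal was therefore used with no count test, read depth is unknown, and no counting interval can be given. The submitters' processing notes name GRCh38.p14.

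Transcripts were matched without version to GENCODE release 29, which placed 202305 (75.7%) in 57527 genes with 93.8% to 94.7% of each total. Their values were summed per gene. Why the others did not match was not tested, and 5106 of them had a mean above 1, so a gene's sum can miss a transcript. The 16789 genes that reached 1 in 3 or more libraries entered 1 limma-trend model (limma 3.58.1, R 4.3.3) on log2(value + 1) with a mean per group, no covariates and 8 residual degrees of freedom, two-sided, with Benjamini-Hochberg adjustment over all genes and calls at 0.05. The log2(value + 1) scale understates the change of low genes. The fit was tested on simulated data. No source used here says whether the libraries of a group were separate cultures, so p-values measure only how these libraries differ, and that spread may be technical.

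The members and gene lists were chosen with earlier results of these data known. Named beside the 10 PSG genes are other PSG loci, up to 4 called genes per list with the largest change in DHA240, markers at 0, up to 6 called neighbours within 1 Mb, and the 10 genes of highest r. Other genes, such as ITGA5, TGFB1, CEACAM1, ADAM12 and PAX8, were named after their values were seen. Identity was taken from pairwise alignment (Biopython 1.88) of coding sequences, and protein sequences were not used here. Alternatives changed the pseudocount, filter, scaling, spread model, libraries and transcripts used.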

Additional observations from a re-analysis of the deposited data

How the results depend on the processing

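Over 22 alternatives, 5 to 7 PSG genes were called in DHA120 and in DHA240, 5 or 6 in DHA240 against DHA60 and 0 in DHA240 against DHA120. PSG1, PSG3, PSG5, PSG8 and PSG9 were called lower in DHA120 and DHA240 in all 22. PSG2 was called in 8 in DHA120 and 19 in DHA240. The count in DHA60 was 2 and became 1 without the filter, without a variance trend and with only the 2 groups compared, 0 with equal totals, and 1 to 3 with 1 library left out. In DHA120 against DHA60 it was 2 and became 0 without the filter, with equal totals and with only the 2 groups compared, 1 without the trend, 4 with protein-coding transcripts only, and 0 to 5 with 1 library left out. The log2 fold change in DHA60 turned to 0.0065 for PSG2 with equal totals, and for PSG1 it ran from -0.41 to 0.016 with 1 library left out, the positive value without library 3 of the DHA60 group. The cause was not tested.

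Over all genes, 360 were called in DHA120 against DHA60, but 2 without the filter, 110 with equal totals, 49 without the trend, 1 with only the 2 groups compared and 1 to 2348 with 1 library left out. In DHA240 against DHA120 0 became 3 without the filter, with equal totals, after quantile normalization and without the trend. In DHA240 against DHA60 4168 became 2064 with only the 2 groups compared and 2056 to 5003 with 1 library left out. In DHA60 3177 became 1888 to 3435 with 1 library left out.

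The replicate numbers may pair the libraries in part, which the main fit does not model. After the group means were removed, same-numbered libraries of different groups correlated at over 0.1 in 6 of 18 pairs (-0.025 to 0.24). For 9 of 12 libraries the mean correlation with libraries of other groups was highest for their own number. With the replicate number as a block, 5 PSG genes and 1785 genes in all were called in DHA120 against DHA60. PSG3 was then called in DHA60 (adjusted p = 0.0198, limma) and PSG2 not in DHA120 (adjusted p = 0.0557). Low values carry 1 decimal, which limits what can be seen of PSG2, PSG4, PSG6, PSG7 and PSG11.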
